A study of Homo sapiens with 12 samples.

Results

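The genes described here are the 40 Wnt ligands, receptors and antagonists of the human genome that were listed by name for this purpose, of 20033 protein-coding genes annotated by RefSeq. These genes were chosen with earlier results of these data known. They comprise 18 WNT ligand genes, 12 receptor genes (10 frizzled genes, LRP5 and LRP6), 9 antagonist genes (DKK1 to DKK4, KREMEN1, KREMEN2, SFRP1, SFRP2 and SFRP4) and the feedback gene AXIN2. A listed region was assigned to a gene when it overlapped the gene body or the 10 kb on either side of it, called the locus here, by at least 1 bp. Together the 40 loci held 71 distinct listed regions, and 28 of the 40 genes had at least 1.

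The regions came from ATAC-seq, which finds open chromatin by where a transposase inserts. The cells were 22Rv1, a human line established from prostate cancer, all with the genotype label WT. The 12 samples formed 4 groups of 3: enzalutamide, an antiandrogen, at 1 µM for 6 h; OSU-ERb-12, a ligand of oestrogen receptor beta, at 100 nM for 6 h; OSU-ERb-12 plus enzalutamide for 6 h, called the combination here, whose own labels give no doses; and vehicle. The deposited data were 1 list of regions per treatment, with no list for vehicle. The enzalutamide list held 25317 regions, the OSU-ERb-12 list 17931 and the combination list 6248. The lists were taken to come from comparisons with the single vehicle group, which they would then share. The name of each list carries the tag neg, which may mean that it holds a single direction of change, but no source used here defines it and no direction was assigned. The lists hold no value per sample or per region and no sign column, so whether a region was more or less open than in vehicle, the sequencing depth and the spread between replicates are unknown. Every result below is about where listed regions lie, and a gene without one may still have changed. Accessibility of the genes that mark the cell type could not be read from such lists.

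Wnt proteins are secreted lipid-modified ligands that bind a frizzled receptor together with the coreceptor LRP5 or LRP6. In the canonical branch this stops a cytoplasmic complex built on AXIN proteins from marking beta-catenin for destruction, and beta-catenin then acts with TCF/LEF factors at DNA. Secreted frizzled-related proteins bind Wnts, while DKK1, DKK2 and DKK4 bind LRP5 and LRP6 and act with the KREMEN receptors. In the prostate the pathway takes part in bud formation and epithelial growth, and it is altered in part of advanced prostate cancers.

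In 3 members a listed region reached the promoter window, the 250 bases before to 50 after a gene start in RefSeq (GRCh38.p14, the build named hg38 in the submitters' notes). These windows are shown because a listed region overlaps them, and only the region at LRP5 covers the start itself. Promoter windows were available for 24 of the 40 members. At the other 16, some with a region across a gene end, it is unknown here whether a region reached the start. An enzalutamide region lay on the windows of WNT5B and LRP5, and an OSU-ERb-12 region on that of WNT6. The fourth window belongs to LOC124902528, a predicted coding gene that overlaps the receptor gene FZD8. It is shown because the enzalutamide region upstream of FZD8 covers part of it, and it was the only window of a coding gene other than a member that a region at a member reached. Windows of noncoding genes, LOC105376494 at the same FZD8 region and FLYWCH1-AS1 at a KREMEN2 region, are not shown. The windows lie at chr12:1628981-1629280 (+) for WNT5B, chr11:68312341-68312640 (+) for LRP5, chr2:218859555-218859854 (+) for WNT6 and chr10:35642797-35643096 (-) for LOC124902528. Each is written 5′ to 3′ on the strand of its gene, with the bases inside the listed region in capitals.
WNT5B: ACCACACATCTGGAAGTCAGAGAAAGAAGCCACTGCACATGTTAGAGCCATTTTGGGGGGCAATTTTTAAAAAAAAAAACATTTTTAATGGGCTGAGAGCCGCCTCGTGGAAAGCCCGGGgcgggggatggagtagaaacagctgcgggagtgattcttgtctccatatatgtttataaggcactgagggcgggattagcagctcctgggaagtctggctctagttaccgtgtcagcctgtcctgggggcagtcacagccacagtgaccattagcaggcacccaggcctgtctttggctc
LRP5: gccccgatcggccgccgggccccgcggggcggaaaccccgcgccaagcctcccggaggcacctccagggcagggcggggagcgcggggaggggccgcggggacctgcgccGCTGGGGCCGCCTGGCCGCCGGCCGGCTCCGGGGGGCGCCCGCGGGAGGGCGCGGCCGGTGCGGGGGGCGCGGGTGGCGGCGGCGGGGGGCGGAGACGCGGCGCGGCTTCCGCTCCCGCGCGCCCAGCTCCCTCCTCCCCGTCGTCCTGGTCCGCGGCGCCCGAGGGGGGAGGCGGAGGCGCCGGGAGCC
WNT6: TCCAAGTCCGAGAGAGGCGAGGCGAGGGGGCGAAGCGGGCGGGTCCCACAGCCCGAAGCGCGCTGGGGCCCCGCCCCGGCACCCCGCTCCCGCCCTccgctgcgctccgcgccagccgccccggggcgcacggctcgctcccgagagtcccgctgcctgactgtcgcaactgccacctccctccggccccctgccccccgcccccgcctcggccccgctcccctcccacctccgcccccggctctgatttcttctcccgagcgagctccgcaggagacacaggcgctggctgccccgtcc
LOC124902528: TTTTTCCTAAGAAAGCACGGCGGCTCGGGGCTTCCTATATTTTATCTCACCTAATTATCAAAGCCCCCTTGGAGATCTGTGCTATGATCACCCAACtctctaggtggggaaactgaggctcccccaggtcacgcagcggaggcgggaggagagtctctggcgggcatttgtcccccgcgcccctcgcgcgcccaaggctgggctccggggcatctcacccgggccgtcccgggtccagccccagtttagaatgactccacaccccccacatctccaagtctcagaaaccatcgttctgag
The capitals cover the first 120 bases of the WNT5B window, the first 96 of the WNT6 window, the last 190 of the LRP5 window, across its start, and the first 96 of the LOC124902528 window. G and C made up 52% of the WNT5B window, 86.7% of the LRP5 window and 78% of the WNT6 window. The LRP5 window had a higher share than 99.9% of the promoter windows of all protein-coding genes, and the WNT5B window a higher share than 23.1% of them. The median was 72.7% over the 27 member windows and 62.3% over the 22198 windows of all protein-coding genes.

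Several short motifs were searched in these windows on both strands. CTTTGAT, bound by TCF/LEF factors, was in none of the 27 member windows and in 1.98% of all windows. The LOC124902528 window held it once, reversed as ATCAAAG from base 57, inside the capitals, while the windows of LOC105376494 and FLYWCH1-AS1 held none. The full androgen receptor site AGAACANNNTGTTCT and the full oestrogen receptor site GGTCANNNTGACC were in none of the member windows, and in 0% and 0.036% of all windows. The shorter AGAACA, which the full site contains, was in 2 member windows, those of WNT2B and WNT8B, and in 11.7% of all. GGTCA, likewise part of its full site, was in 8 member windows, WNT5B among them but outside its capitals, and in 35.6% of all. The GC box GGGCGG was in 22 member windows and 56.3% of all; the LRP5 window held 3, of which 1 in capitals, and the WNT6 window 6, of which 3 in capitals. A match describes letters and does not show binding.

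The share of Wnt genes with a listed region was below that of all genes in each list, within wide intervals. An enzalutamide region was in the locus of 21 of the 40 members (52.5%), against 58.3% of all protein-coding genes. OSU-ERb-12 regions were at 15 members (37.5%), against 39.2% of all genes. Combination regions were at 6 members (15%), against 21.7% of all genes. The exact 95% intervals of the member shares, 36.1 to 68.5%, 22.7 to 54.2% and 5.71 to 29.8%, each contained the share of all genes. These intervals cover counting error only, and with 40 genes they cannot show that the shares are equal. Neighbouring members that hold the same region are not separate counts. Under each other window tried, the member share was again below that of all genes for enzalutamide and the combination. For OSU-ERb-12 it was above in each of those windows. None of these differences was tested. The median locus was 45.1 kb for members and 44.1 kb for all genes.

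**Figure D1:**
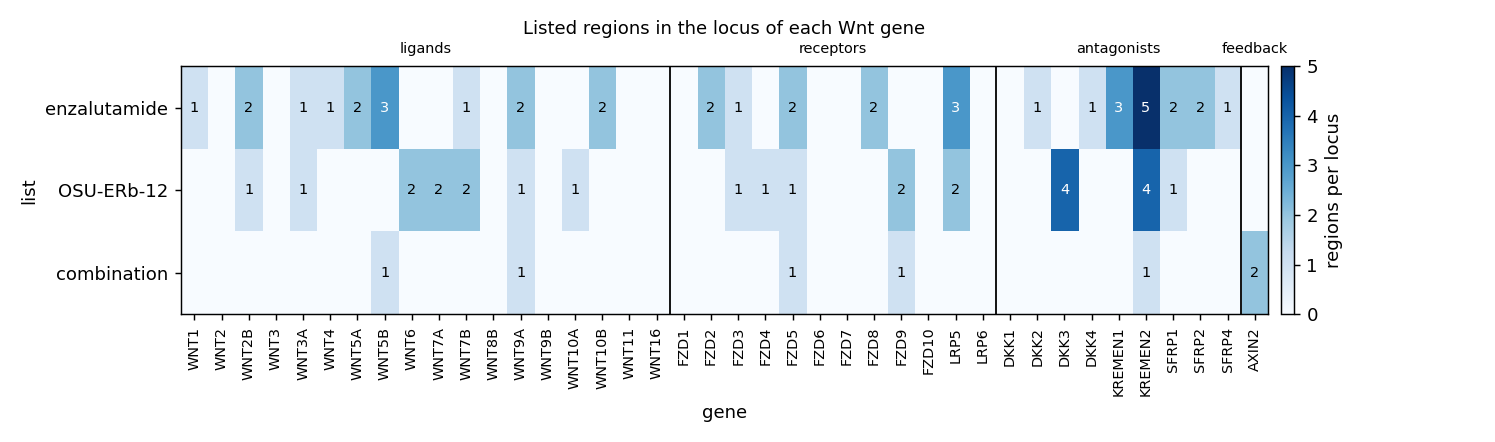
Number of listed regions in the locus of each of the 40 Wnt genes (columns, by role) in each of the 3 lists (rows); empty cells are 0. KREMEN2 has 5 enzalutamide and 4 OSU-ERb-12 regions, DKK3 has 4 OSU-ERb-12 regions, and AXIN2 has 2 combination regions alone.

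For enzalutamide, the share of members with a region varied less between classes of locus length than the share of all genes. Among members with a locus under 30 kb, 7 of 13 held an enzalutamide region (53.8%), against 41.5% of all genes of that length, 4 an OSU-ERb-12 region (30.8%), against 24.1%, and 3 a combination region (23.1%), against 14.4%. In the middle class, 30 to 60 kb, 6 of 13 held an enzalutamide region (46.2%), against 55.4% of all such genes, 3 an OSU-ERb-12 region (23.1%), against 34.9%, and 3 a combination region (23.1%), against 19.2%. Among members with a locus over 60 kb, 8 of 14 held an enzalutamide region (57.1%), against 73.9% of all such genes, and the same number an OSU-ERb-12 region, against 54.7%. No combination region lay in any of these 14 longer loci, which allows a share of up to 21.4% (3 counts of the total, the rule used here for a count of 0), against 29.6% of all genes of that length. With 13 or 14 genes a class, none of these differences was tested.

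With KREMEN2 included, the number of regions per kilobase was higher at members than over all protein-coding loci, by little for the combination. The enzalutamide list held 39 distinct regions in the members' loci, or 1.75 per 100 kb (counting interval 1.25 to 2.39), against 1.18 over the loci of all protein-coding genes. For OSU-ERb-12 the 25 regions gave 1.12 per 100 kb (0.726 to 1.66), against 0.76. For the combination the 7 regions gave 0.314 per 100 kb (0.126 to 0.648), against 0.286. Regions gather at some loci, so these intervals are too narrow and the rates are a description. KREMEN2 alone supplied 5, 4 and 1 of the regions. Without it the rates were 1.54 (1.07 to 2.16), 0.953 (0.59 to 1.46) and 0.272 (0.1 to 0.593) per 100 kb. Each interval then contained the rate over all loci, and the combination rate was below it. Rates were not matched for locus length, and the longest locus was 171 kb among members and 2.49e+03 kb among all genes.

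Of the 18 ligand genes, 9 were reached by the enzalutamide list (50%), 7 by the OSU-ERb-12 list (38.9%) and 2 by the combination list (11.1%). WNT5B, a ligand mostly studied in beta-catenin-independent signalling, held 3 enzalutamide regions, the most among ligands; 13.6% of all protein-coding genes held 3 or more. The first lay at chr12:1628901-1629100, 131 bp upstream of the second of its 2 annotated starts, and is the one whose bases are capitals in the window above. The second, at chr12:1629401-1629950, began 170 bp downstream of the same start. The last was at chr12:1648951-1649150, 1739 bp above the gene. A combination region at chr12:1647451-1647800 lay 239 bp above the gene and 1150 bp from that last enzalutamide region, and OSU-ERb-12 had no region in the locus. The lists thus had regions near both an inner start of WNT5B and its upper end, without overlapping.

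WNT9A and WNT3A, neighbours on chromosome 1, both held enzalutamide and OSU-ERb-12 regions. WNT9A, which has a role in joint formation in the mouse, had enzalutamide regions at chr1:227947551-227947800 and chr1:227946451-227946650, 132 and 1282 bp downstream of its start. Further into the gene, 3182 bp from the start, the OSU-ERb-12 and combination lists each named the region chr1:227944551-227944750. WNT3A, a ligand widely used to activate the canonical branch, had an enzalutamide region 3048 bp and an OSU-ERb-12 region 1648 bp upstream of its start, separated by 1150 bp. WNT2B showed a similar arrangement, with an enzalutamide region 3841 bp and an OSU-ERb-12 region 1991 bp upstream and 1650 bp between them, besides a second enzalutamide region inside the gene. All 3 lists were dense around WNT9A and WNT3A. Within 5 Mb of WNT9A there were 1.63 enzalutamide, 1.77 OSU-ERb-12 and 0.578 combination regions per 100 kb, against medians of 1.04, 0.85 and 0.304 over the members.

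WNT7B, a ligand of lung and kidney development, carried the widest region at any member, the enzalutamide region at chr22:45977051-45977950, which spans 900 bp across the upper end of the gene. The OSU-ERb-12 region at chr22:45977601-45977800 lay wholly within it, and a second one was inside the gene. WNT6 held 2 OSU-ERb-12 regions and no other. One, at chr2:218859451-218859650, ended 155 bp upstream of the start and gave the capitals in its window. The other, inside WNT6, also fell within 10 kb of the adjoining WNT10A, a ligand of tooth and skin appendage development, and was its only region. WNT7A held 2 OSU-ERb-12 regions deep in the gene, 38471 and 41421 bp downstream of its start.

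Enzalutamide regions alone were found at WNT1, WNT4, WNT5A and WNT10B. WNT5A, the best studied ligand of the beta-catenin-independent branch, had one 845 bp upstream of its nearer start and another 6515 bp below the gene. WNT4, a ligand of ovary development, had one inside the gene, 12147 bp from its start. WNT1 and WNT10B lie side by side on chromosome 12 and shared a region, which overlaps the upper end of WNT10B and lies 6372 bp upstream of WNT1. The other region counted for WNT10B was in the body of ARF3. WNT2, WNT3, WNT8B, WNT9B, WNT11 and WNT16 held no region. For the neighbours WNT3 and WNT9B the nearest region of any list was 126759 and 58713 bp away, in both cases an OSU-ERb-12 region, and the nearest enzalutamide regions were 369559 and 301513 bp away.

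**Figure D2:**
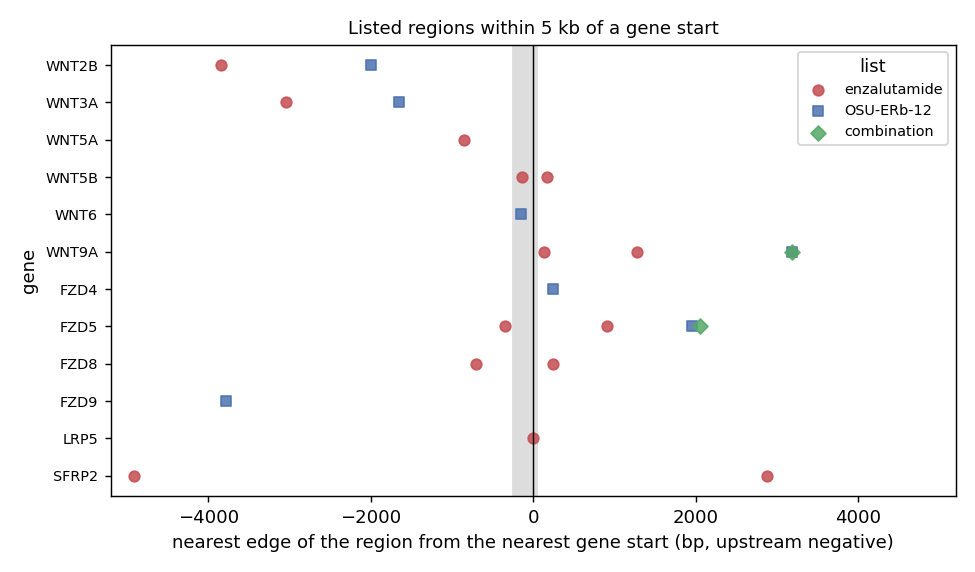
Position of listed regions within 5 kb of an annotated start, for the 12 members with a promoter window and such a region; points mark the nearest edge of a region in bp (upstream negative, 0 for a region on the start), and the grey band is the promoter window. Of 23 regions, 1 enzalutamide region at LRP5 lies on a start, and at WNT9A and FZD5 the OSU-ERb-12 and combination regions coincide or overlap downstream of it.

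Of the 12 receptor genes, 5 held an enzalutamide region and 5 an OSU-ERb-12 region (41.7% each), and 2 a combination region (16.7%). Their median locus was 27.1 kb. Of all genes with a locus under 30 kb, 41.5%, 24.1% and 14.4% held a region of these lists in the same order. LRP5, the coreceptor linked to bone mass, held 3 enzalutamide and 2 OSU-ERb-12 regions in its locus of 171 kb. The enzalutamide region at chr11:68312451-68312800 covered the annotated start in the window printed above, which lies inside the gene body. An overlapping pair lay 62 bp below the lower end of the gene, 14241 bp upstream of that start. There the enzalutamide region at chr11:68298151-68298350 was contained in the OSU-ERb-12 region at chr11:68298051-68298350. The third enzalutamide region, at chr11:68298901-68299150, and the second OSU-ERb-12 region, at chr11:68371451-68371650, were inside the gene. LRP5 had 1.76 enzalutamide and 1.17 OSU-ERb-12 regions per 100 kb of locus, close to the 1.7 and 1.22 per 100 kb within 5 Mb. LRP6, its paralogue with a locus of the same 171 kb, held no region of any list, and the nearest, an OSU-ERb-12 region, was 14375 bp away.

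FZD5, a frizzled receptor that can signal through beta-catenin, was the receptor gene with all 3 lists in its locus. Its enzalutamide regions flanked the start, at chr2:207770251-207770450 (345 bp upstream) and chr2:207768501-207769000 (906 bp downstream). Farther downstream the OSU-ERb-12 region at chr2:207767751-207767950 overlapped the combination region at chr2:207767651-207767850; they lay 550 and 650 bp from the nearer enzalutamide region. In the 5 Mb around FZD5 the lists were sparse, with 0.68 enzalutamide, 0.29 OSU-ERb-12 and 0.11 combination regions per 100 kb.

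FZD8 also had enzalutamide regions on both sides of its start, 705 bp upstream and 246 bp downstream, and no other list reached its locus. The upstream one covers part of the promoter window of LOC124902528 printed above, and the downstream one lies in the bodies of both genes. FZD4, a receptor that also binds norrin, had a single OSU-ERb-12 region of 650 bp, 245 bp downstream of its start at chr11:86954501-86955150. FZD2 had 2 enzalutamide regions, 89 and 7539 bp above the gene. FZD3 held 1 enzalutamide and 1 OSU-ERb-12 region inside the gene, 42200 bp apart.

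FZD9 was the receptor gene with OSU-ERb-12 and combination regions but no enzalutamide region. Its OSU-ERb-12 regions were 3778 bp below the gene and 7431 bp above it, where the region is in the body of BAZ1B, and its combination region was 9528 bp below the gene. FZD1, FZD6, FZD7, FZD10 and LRP6 held none. The nearest region to FZD6 was a combination region 10485 bp away, just outside the locus.

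Antagonist genes had the highest share for enzalutamide and the members with 4 or more regions of a single list, KREMEN2 and DKK3. An enzalutamide region was at 7 of the 9 genes (77.8%; exact 95% interval 40 to 97.2), against 50% of ligand genes (26 to 74) and 41.7% of receptor genes (15.2 to 72.3). The intervals overlap, and each contains the 58.3% of all protein-coding genes. The roles also differ in locus length, with medians of 37.3 kb for antagonist, 49.7 kb for ligand and 27.1 kb for receptor genes. Of all genes, 41.5% of those with a locus under 30 kb and 55.4% of those with 30 to 60 kb held an enzalutamide region. With 50 kb either side the order turned, to 7 of 9 antagonist genes, 15 of 18 ligand genes and 8 of 12 receptor genes. OSU-ERb-12 regions were at 3 antagonist genes (33.3%) and combination regions at 1 (11.1%).

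**Figure D3:**
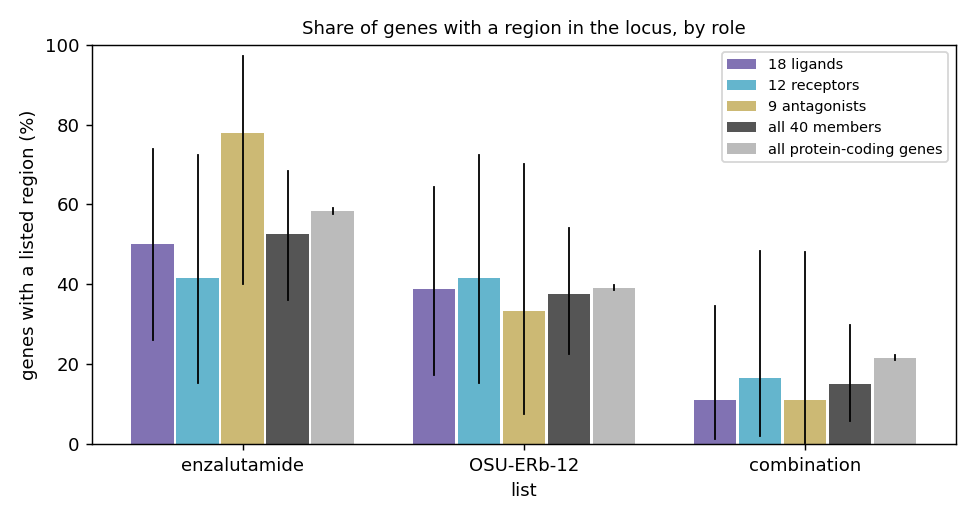
Percentage of genes with a listed region in the locus, by list and role, for 18 ligand, 12 receptor and 9 antagonist genes, all 40 members and all protein-coding genes; black lines are exact 95% intervals of counting. The highest bar is that of antagonist genes for enzalutamide at 77.8%, and the intervals of the 3 roles overlap in every list.

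KREMEN2, which encodes a receptor for DKK proteins, held 5 enzalutamide, 4 OSU-ERb-12 and 1 combination region in a locus of 24.1 kb. Of all protein-coding genes, 3.08% held 5 or more enzalutamide regions and 3.17% held 4 or more OSU-ERb-12 regions. KREMEN2 was among the members chosen with earlier results of these data known, so these shares describe its counts and lend them no weight. The 5 and 4 regions correspond to 20.7 and 16.6 per 100 kb of locus, against 1.58 and 0.803 per 100 kb within 5 Mb. In a locus this short the 1 combination region already gives 4.15 per 100 kb, so any region puts a list above its local rate. Of the 10 regions, 2 touched the body of KREMEN2: the OSU-ERb-12 region at chr16:2966451-2966650 and the enzalutamide region at chr16:2968251-2968650, which crosses its upper end. A further 3 lay in bodies of other coding genes, PAQR4 and PKMYT1, and 2 in that of the noncoding gene FLYWCH1-AS1. No region here overlapped one of another list. Each OSU-ERb-12 region lay 600 to 1600 bp from an enzalutamide region, and the combination region at chr16:2963101-2963300, 975 bp below the gene, lay 1100 bp from one. The locus is gene-dense, and with 2 of the 10 regions on its body the count cannot be credited to KREMEN2 alone. Which gene, if any, a region acts on was not tested.

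DKK3, a divergent member of the Dickkopf family, held 4 OSU-ERb-12 regions and no other. All were inside the gene, at chr11:11966451-11966700, chr11:11982151-11982350, chr11:11995601-11995800 and chr11:11997951-11998200. The locus had 6 OSU-ERb-12 regions per 100 kb, against 0.727 within 5 Mb, a local rate that any region in a locus of 66.7 kb exceeds. Its nearest enzalutamide region was 78156 bp away. KREMEN1, the paralogue of KREMEN2, held 3 enzalutamide regions inside the gene; its nearest OSU-ERb-12 region was 41585 bp away.

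The other antagonist genes held 1 to 3 regions, apart from DKK1, which held none. SFRP1, a secreted Wnt-binding protein gene, had an enzalutamide region across its upper end, another 2928 bp above it, and an OSU-ERb-12 region inside the gene. SFRP2 had 2 enzalutamide regions, 2883 bp downstream and 4918 bp upstream of its start. SFRP4 had 1, 3432 bp below the gene. DKK2 had 1 across its upper end, and DKK4 had 1 that lay 679 bp above it in the body of VDAC3. The nearest region to DKK1 was an OSU-ERb-12 region 13431 bp away.

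AXIN2 encodes a scaffold of the beta-catenin destruction complex and is itself switched on by the pathway. It held 2 combination regions, inside the gene at chr17:65551751-65551950 and chr17:65556301-65556500, and none of the other lists. Of all protein-coding genes, 4.57% held 2 or more combination regions, and 2.46% held combination regions alone. Both were 200 bp wide, the narrowest width in the lists. The locus had 3.77 combination regions per 100 kb, against 0.15 within 5 Mb. Any region in a locus of 53.1 kb gives a rate above that local one, so the difference adds nothing to the count. The nearest enzalutamide region was 48253 bp away and the nearest OSU-ERb-12 region 109713 bp.

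**Figure D4:**
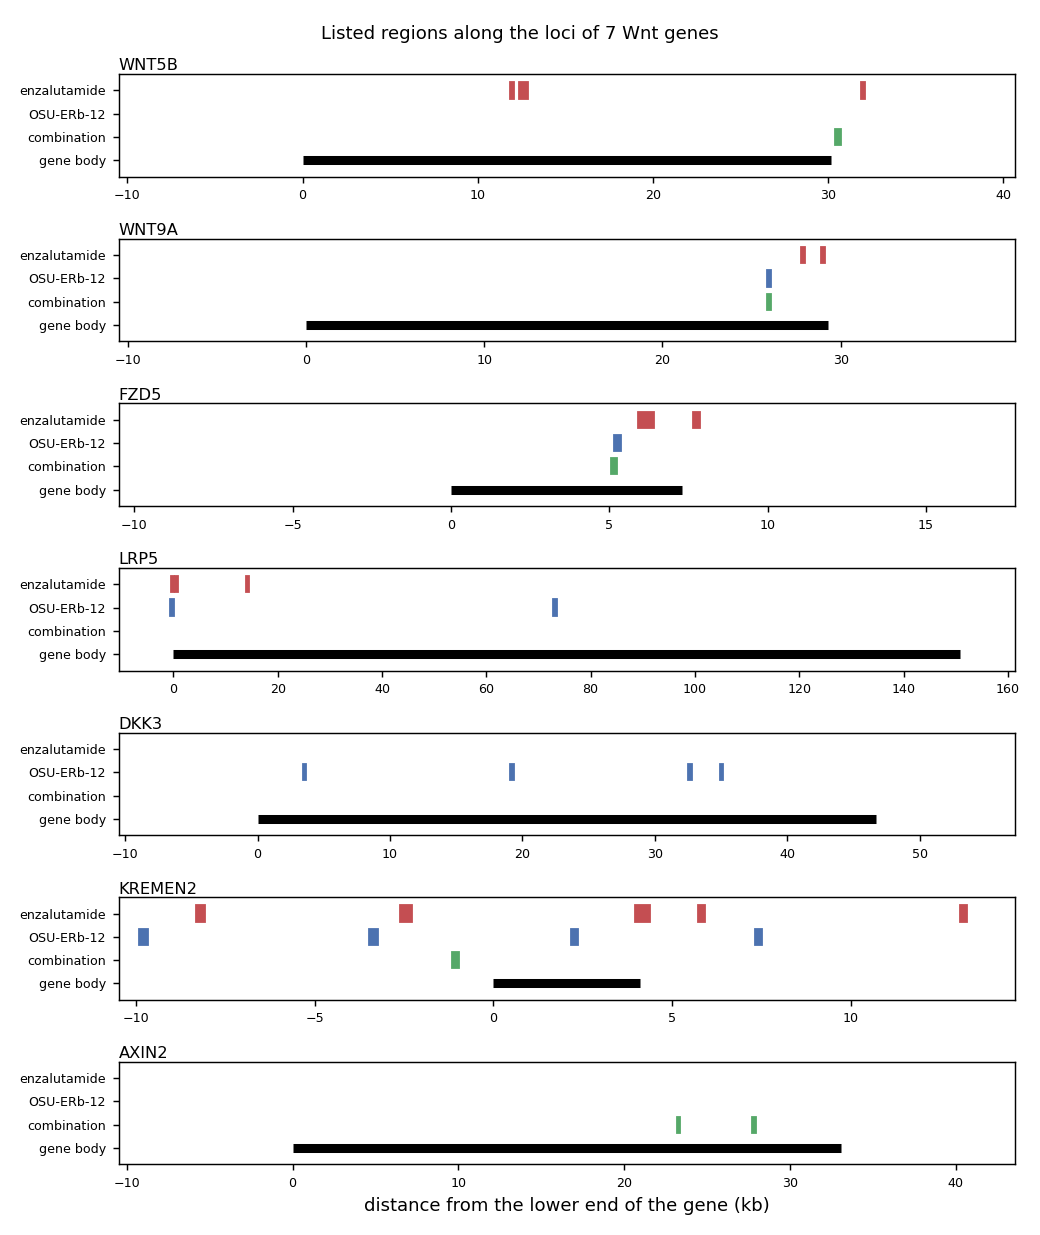
Listed regions along the loci of 7 Wnt genes, as distance from the lower end of the gene in kb, with the gene body as a black bar; narrow regions are drawn wider than they are so that they can be seen. At KREMEN2 the enzalutamide and OSU-ERb-12 regions are interspersed without overlap, at DKK3 all 4 regions are from the OSU-ERb-12 list, and at AXIN2 both are from the combination list.

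Most members with a region had it from a single list. At least 2 lists had a region at 11 members (27.5%), against 37.4% of all genes. Regions of enzalutamide alone were at 11 members (27.5%), against 23.1% of all genes. OSU-ERb-12 alone had WNT6, WNT7A, WNT10A, FZD4 and DKK3 (12.5%), against 7.7%. Enzalutamide with OSU-ERb-12 had WNT2B, WNT3A, WNT7B, FZD3, LRP5 and SFRP1 (15%), against 18.2%. All 3 lists met at WNT9A, FZD5 and KREMEN2 (7.5%), against 11% of all genes. AXIN2 was the member with combination regions alone, as described. WNT5B had enzalutamide and combination regions (2.5%), against 6% of all genes, and FZD9 had OSU-ERb-12 and combination regions (2.5%), against 2.23%. The remaining 12 members held none (30%), against 29.3%.

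Listed regions seldom coincided. Of the 25 OSU-ERb-12 regions at members, 2 overlapped an enzalutamide region (8%), those at WNT7B and LRP5, against 10.2% of the OSU-ERb-12 regions in all protein-coding loci; they made up 5.13% of the 39 enzalutamide regions at members. Of the 7 combination regions, 2 overlapped an OSU-ERb-12 region (28.6%; exact interval 3.67 to 71), at WNT9A and FZD5, against 14.1% of those in all loci. None of the 7 overlapped an enzalutamide region, which allows up to 42.9% by the same rule of 3 counts, against 18.8% in all loci. No region at a member was shared by all 3 lists.

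At gene ends the shares were close to those of all genes. A region within 1 kb of either end was found at 11 members for enzalutamide (27.5%), against 28.3% of all genes, at 4 for OSU-ERb-12 (10%), against 7.88%, and at 2 for the combination (5%), against 5.51%. On promoter windows, enzalutamide regions were found at 2 of 24 members (8.33%), against 12.2% of the 15842 protein-coding genes with one. OSU-ERb-12 had 1 (4.17%), against 1.74%. The combination had 0, which allows up to 12.5% by the rule of 3 counts, against 2.41%.

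Among 60 other genes of the pathway, an enzalutamide region was at 46 (76.7%), an OSU-ERb-12 region at 39 (65%) and a combination region at 16 (26.7%). Over all protein-coding genes the shares were 58.3%, 39.2% and 21.7%. The median locus of these 60 genes, 85.2 kb, was longer than that of all genes, and of all genes with a locus over 60 kb, 73.9%, 54.7% and 29.6% held a region of these lists in the same order. The R-spondins, which strengthen Wnt signals, their LGR receptors and the ubiquitin ligases RNF43 and ZNRF3 held enzalutamide regions at 9 of 9 genes, OSU-ERb-12 regions at 7 and combination regions at 5. LGR4 had 5 enzalutamide regions, RNF43 4, and LGR6 5 OSU-ERb-12 regions. Nuclear effectors had 12, 7 and 5 of 13 in the same order of lists, led by BCL9L, a beta-catenin cofactor, with 6 enzalutamide regions. The cytoplasmic cascade had 10, 7 and 4 of 14. TNKS held 4 OSU-ERb-12 regions in a locus of 246.4 kb, and DVL2 held 3, 3 and 2 regions in a locus of 29.2 kb. None of the DVL2 regions lay within 1 kb of its ends, and whether they lie in other genes was not examined. Genes of non-canonical receptors and planar polarity had 8, 11 and 2 of 13, with 5 enzalutamide regions at PRICKLE1 and 4 OSU-ERb-12 regions at CELSR1. From the R-spondin group to this one, median loci were 127, 70.1, 81.9 and 135 kb, all in the class over 60 kb whose shares are given above. Of all protein-coding genes, 3.08% held 5 or more enzalutamide and 3.17% held 4 or more OSU-ERb-12 regions. The loci of LGR4, LGR6, PRICKLE1 and CELSR1 spanned 126.8, 146.0, 153.0 and 196.4 kb, and that of BCL9L 49.8 kb. Genes of Wnt secretion and other extracellular modulators had 7 (63.6%), 7 (63.6%) and 0 of 11, with a median locus of 31.8 kb. Of all genes with a locus of 30 to 60 kb, 55.4%, 34.9% and 19.2% held a region. Loci in this group ran from 24.3 to 154.1 kb, so that class is no length match. The other pathway groups likewise held loci outside the class of their median. With 11 genes, the 0 does not show a lower share. Of the secretion and modulator genes, PORCN, the gene of the acyltransferase of Wnt proteins, held 2 enzalutamide regions and 1 OSU-ERb-12 region. TRABD2A and TPBG also held 2 enzalutamide regions, and NOTUM and SOSTDC1 each held 2 OSU-ERb-12 regions.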

How the data were processed

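ATAC-seq samples were grouped by the treatment in their labels. ATACSeqQC separated nucleosome-free reads per the labels' protocols, and the submitters' processing notes name FastQC, Trimmomatic and hg38. No source used here gives the peak caller, threshold, test or pooling of replicates, or defines the tag neg in the list names, which could stand for a direction. The deposited files hold the chromosome, start and end of each region and a score that is 0 in every row. Boundaries lie on a 50 bp grid and the narrowest region is 200 bp. Lists were matched to treatments by the prefix in the sample titles, which for OSU-ERb-12 is an unexplained WT.

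Genes, starts and promoter sequences came from RefSeq GRCh38.p14; coordinates are 1-based, and exons were not used. WNT7B, WNT10B, WNT11, FZD2, FZD3, FZD6, FZD7, FZD10, LRP6, DKK2, DKK3, DKK4, KREMEN1, KREMEN2, SFRP1 and AXIN2 had no promoter window. Above and below a gene mean higher and lower coordinates. Regions were shared if they overlapped by 1 bp or more. Shares carry exact Clopper-Pearson and rates exact Poisson 95% intervals (SciPy 1.17.1); the limit printed for a count of 0 is 3 counts of the total. No test over samples was possible, and no set test was run. Overlap counting was tested on simulated data. All members were described, and of each other pathway group the genes with most regions could be named. The members and gene lists were chosen with earlier results of these data known, KREMEN2 among them. Other windows, overlap rules, merging and a width filter were tried.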

Additional observations from a re-analysis of the deposited data

How the results depend on the processing

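Counting depended on the window and on the narrowest regions. Of 141 recounts of 18 counts under 11 settings, 93 stayed within 1.5 times. All recounts did so with the midpoint of a region inside the locus, with regions in other coding genes left out, with neighbours within 1 kb merged, with sharing by overlap of 50% of the shorter region or within 500 bp, and without KREMEN2, a setting chosen after seeing the data. With 50 kb either side, enzalutamide reached 15 ligand and 8 receptor genes and 74 regions, with antagonist genes still at 7, so that ligand genes had the highest share. OSU-ERb-12 then reached 26 members (12 ligand, 8 receptor and 6 antagonist genes) and 48 regions. The combination reached 12 members (6 ligand and 2 antagonist genes) and 17 regions, of which 1 was shared with enzalutamide and 4 with OSU-ERb-12. Of all genes, 79%, 63.8% and 39.6% then held a region, against 77.5%, 65% and 30% of members. With 1 kb around gene ends, the counts were 11 members (3 ligand, 4 antagonist genes) and 14 regions for enzalutamide. They were 4 members (2 ligand, 2 receptor, 0 antagonist genes) and 4 regions for OSU-ERb-12, and 2 members (1 ligand, 0 receptor genes) and 2 regions for the combination, 0 shared with OSU-ERb-12. With the gene body alone there were 21 enzalutamide regions, and 4 ligand genes and 15 regions for OSU-ERb-12, 0 shared with enzalutamide. The combination then had 3 members (1 ligand, 1 receptor, 0 antagonist genes) and 4 regions, and 1 receptor gene with 5 kb either side. In the gene body alone, 41%, 26.8% and 13.9% of all genes held a region of the 3 lists, against 40%, 27.5% and 7.5% of members. With 5 kb either side the shares were 53%, 34.1% and 18.7% of all genes, against 50%, 35% and 12.5% of members. Without regions of 200 bp, enzalutamide kept 4 antagonist genes and 18 regions, OSU-ERb-12 7 members (1 ligand gene) and 9 regions, and the combination 2 members (1 ligand, 1 receptor, 0 antagonist genes) and 2 regions. All genes were not recounted without regions of 200 bp, so those counts have no share over all genes beside them. A wider window takes in more regions by construction. No paired analysis was possible because the lists hold no values per sample, and for the same reason no replicate could be left out and the effect of depth on list length was not tested.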
